A study of Mus musculus with 8 samples.

Results

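The genes for the translation initiation and elongation factors of the mouse were followed through RNA polymerase II peaks in MEL cells, a mouse erythroleukaemia line. A gene was a member if the RefSeq table for GRCm38 lists it as protein-coding under a symbol starting with Eif1 to Eif6, Eef1 or Eef2, and 71 of the 21532 protein-coding genes with a known strand met this rule. The rule uses symbol, biotype and strand. Eef1akmt4 and its readthrough gene Eef1akmt4-ece2 share a start, so that start is counted 2 times below, and with 1 gene per start there are 70 members. CUT&Tag, in which an antibody tethers a transposase that tags nearby chromatin, was carried out for the Rpb1 C-terminal domain phosphorylated on serine 5 (Ser5P) or serine 2 (Ser2P). The Myrlin KD group is a MEL line with knockdown of Myrlin, an RNA made from an enhancer that lies 81 kb upstream of Myb, and the dCas control group is a MEL line whose genotype is labelled as dCas control. The series text names dCas for both lines, and the labels give neither the dCas fusion nor the guides. Each antibody was used on 2 libraries of each line, for 8 libraries and 4 groups in all. Whether a line is 1 clone and whether its replicates are separate cultures is not stated in the labels, and a p-value here therefore reflects library-to-library spread that can be technical.

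Translation starts when eIF2 brings the initiator tRNA to the small ribosomal subunit, held open by the eIF1 factors and the large eIF3 complex, while eIF4F binds the cap of the mRNA and recruits the subunit to it. The elongation factors eEF1A and eEF2 then deliver aminoacyl-tRNAs and move the ribosome along, and kinases of eIF2alpha and eEF2 slow these steps under stress. In erythroid cells the haem-regulated kinase encoded by Eif2ak1 ties globin synthesis to the supply of haem. Ser5P is known as the mark of polymerase near the start of genes, and Ser2P as the mark that grows along the gene body towards the 3′ end.

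The promoter sequences of the members on which the results turn are given from 70 bases before to 30 bases after an annotated start, 5′ to 3′ on the gene's strand, from the RefSeq promoter table for GRCm38.p6. Capitals mark an E-box (CACGTG), an ETS core (CGGAAG), an NRF1 core (GCGCATGC), each on either strand, or a terminal oligopyrimidine tract, which is a C followed by at least 5 pyrimidines that begins within 10 bases of the start. Eef1a1 and Eef2 encode the main elongation factors, Eif4g1 the scaffold of eIF4F, Eif2s1 the alpha subunit of eIF2 and Eif3g a subunit of eIF3. Eif4e, for the cap-binding protein, had Ser5P promoter values that did not overlap between the lines but did not pass the test, and Eef1a2, the paralogue of Eef1a1 known from muscle and neurons, had no promoter peak. Eef1a1 is at chr9:78481695-78481794 on the minus strand, Eef2 at chr10:81176561-81176660 on the plus strand, Eif4g1 at chr16:20672657-20672756 on the plus strand and Eif2s1 at chr12:78862002-78862101 on the plus strand. Eif3g is at chr9:20898561-20898660 on the minus strand, Eif4e at chr3:138526121-138526220 on the plus strand and Eef1a2 at chr2:181156986-181157085 on the minus strand.
Eef1a1: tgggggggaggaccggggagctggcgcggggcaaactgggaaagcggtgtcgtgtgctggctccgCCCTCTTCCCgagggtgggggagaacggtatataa
Eef2: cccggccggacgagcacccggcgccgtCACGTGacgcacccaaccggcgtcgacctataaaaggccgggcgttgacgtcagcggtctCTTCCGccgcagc
Eif4g1: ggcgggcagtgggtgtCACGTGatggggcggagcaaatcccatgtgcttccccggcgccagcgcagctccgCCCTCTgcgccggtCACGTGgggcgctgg
Eif2s1: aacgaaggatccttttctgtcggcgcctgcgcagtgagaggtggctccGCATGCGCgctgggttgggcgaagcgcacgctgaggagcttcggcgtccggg
Eif3g: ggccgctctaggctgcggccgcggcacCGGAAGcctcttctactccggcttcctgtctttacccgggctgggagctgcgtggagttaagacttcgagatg
Eif4e: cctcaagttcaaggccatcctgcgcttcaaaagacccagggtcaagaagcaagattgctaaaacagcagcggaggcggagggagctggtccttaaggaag
Eef1a2: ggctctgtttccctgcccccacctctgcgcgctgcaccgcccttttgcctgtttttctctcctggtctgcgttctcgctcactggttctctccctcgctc

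The promoter table matched 55 of the 71 members. In the 300 bases from 250 before to 50 after the start, the E-box occurred in 13 of these promoters (23.6%), against 7.86% of 17436 other promoters and 7.91% of all 17491. Among promoters of genes that carried promoter peaks in all 8 libraries, the E-box was present in 12 of 47 members (25.5%) and in 11% of 6115 other genes. Eif4g1 holds the motif on both sides of its start, and Eef2 holds it upstream. The ETS core was found in 26 member promoters (47.3%) and in 21.5% of all promoters. The share was 42.6% of the 47 member promoters with peaks in all libraries and 38.9% of such other promoters. An NRF1 core lay in 5 member promoters (Eef1a1, Eef2, Eif2s1, Eif3k and Eif4h), or 9.09%, against 3.6% of all promoters. Among promoters with peaks in all libraries these shares were 10.6% of members and 7.05% of other genes. The ATF4 composite letters TGATGNAA were found in 1 member promoter, that of Eif2s3x, and in 3.68% of all, or in 2.13% of members and 1.82% of other genes with promoter peaks in all libraries. Counted once per start, the E-box was in 12 of 54 member promoters and the ETS core in 25. A pyrimidine tract close to the annotated start was about as frequent in members (12 promoters, 21.8%) as in all promoters (19.3%). The search rests on the annotated start, and a tract that begins further from it is not counted. In Eef2 the letters CTCTTCC begin downstream of the searched bases, so this gene is scored as having no tract. Whether members hold such tracts more often at the starts in use was therefore not tested. These matches describe letters in a window and were not tested as binding sites.

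The deposited files are peak lists called by MACS2 for each library apart, so the values here are whether a peak overlaps a window and how many bp of the window peaks cover. The promoter window reached 1000 bp to each side of the outer 5′ end of the gene, and the interval window began 1000 bp inside the gene and closed 3000 bp beyond its 3′ end. Lists held 21574 and 24509 peaks for Ser5P KD against 23964 and 25441 for Ser5P control, and 32125 and 29372 for Ser2P KD against 30286 and 20793 for Ser2P control. A relative depth, the most frequent background pileup recovered from the fold and p-value of the peaks, was 0.649 and 0.837 in Ser5P KD libraries against 0.566 and 0.642 in Ser5P control libraries. For Ser2P it was 1.12 and 1.03 in KD libraries against 0.781 and 0.439 in control libraries. Median peak widths were also larger in KD libraries, at 533.5 and 532 bp against 486 and 497 bp for Ser5P, and at 478 and 479 bp against 428 and 381 bp for Ser2P. Depth and peak width thus move with the knockdown, and their part in the differences between the lines was not tested. In the window of 2000 bp to each side of the Myrlin enhancer, peaks covered 275 and 0 bp in Ser5P KD libraries against 513 and 237 bp in Ser5P control libraries, and 0 and 316 bp in Ser2P KD libraries against 302 and 0 bp in Ser2P control libraries, so KD and control values overlapped for both marks. Of the 10 erythroid markers, 5 or 6 had a Ser5P promoter peak in each library, against 0 of 10 lymphoid, 1 of 10 myeloid and at most 1 of 10 non-haematopoietic markers.

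Most translation factor genes carried polymerase peaks at their promoters in every library. Both marks were present at the promoter in all 8 libraries for 59 of 71 members (83.1%), against 34.3% of the 21461 other genes. With 1 gene per start it was 58 of 70 members. In 17 members another gene's 5′ end lay within the promoter window, where a peak cannot be told apart from that of the neighbour. Among genes with no such neighbour the share was 43 of 54 members (79.6%), against 28.6% of 19062 other genes. Ser5P peaks lay at 64 and 63 member promoters in KD libraries and at 62 and 62 in control libraries. Ser2P peaks lay at 64 and 64 member promoters in KD libraries and at 64 and 60 in control libraries. A list of 39 other genes of the pathway, such as release factors, poly(A)-binding proteins and mTOR kinase components, stood at a like level for Ser5P. It had Ser5P promoter peaks in all 4 libraries for 33 genes (84.6%), against 61 members (85.9%). For Ser2P the share was lower, with 30 genes (76.9%) against 59 members (83.1%). Among genes with both promoter marks in all 8 libraries, the median Ser5P coverage of the 59 members was 830 and 968 bp in KD libraries and 807 and 889 bp in control libraries. For the 7365 other genes it was 806 and 846 bp in KD libraries and 759 and 786 bp in control libraries. Median Ser2P coverage was 882 and 843 bp in KD libraries and 753 and 603 bp in control libraries for members. For other genes it was 849 and 817 bp in KD libraries and 738 and 581 bp in control libraries. Members thus had the higher median in each library, and the difference was not tested.

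**Figure D1:**
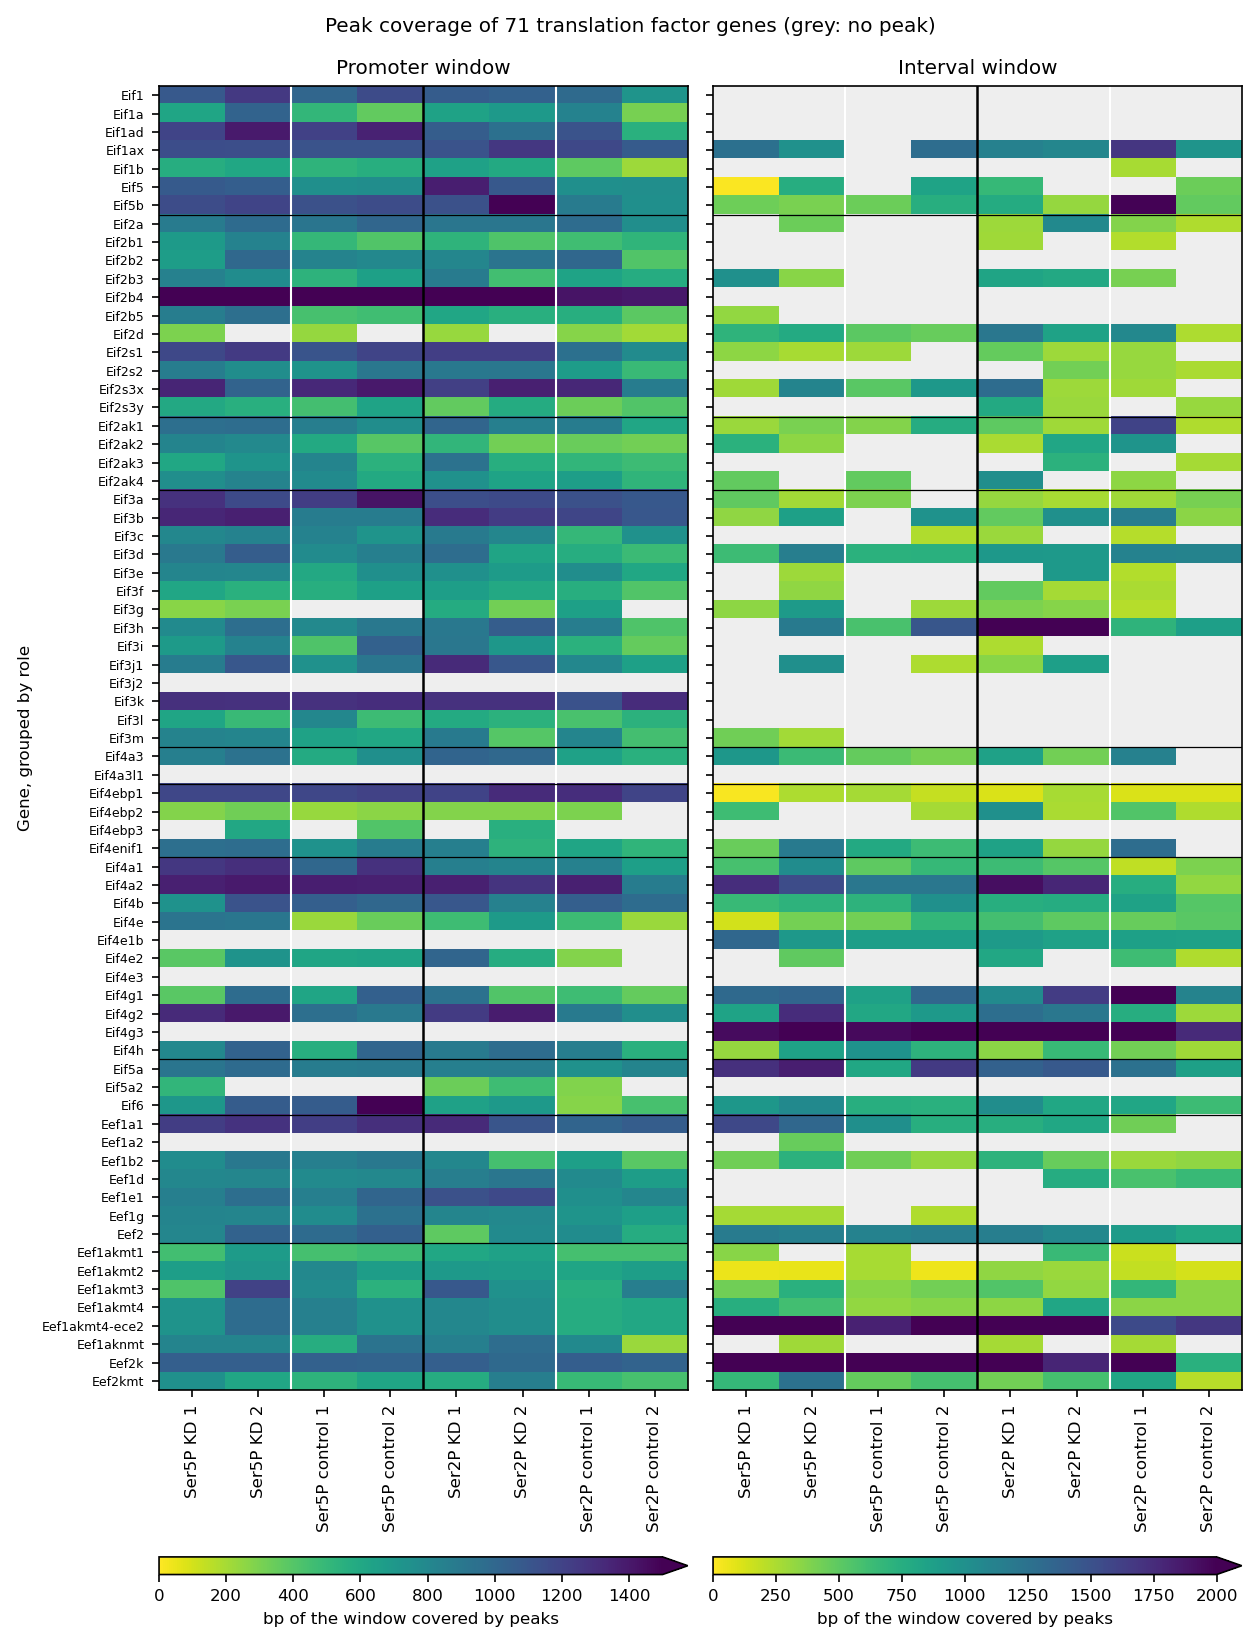
The heat map shows the bp covered by peaks in the promoter window (left) and the interval window (right) for the 71 genes, grouped by role, in 8 libraries with KD left of control for each mark; grey means no peak. Promoter coverage is present in nearly every row, while interval coverage is patchy.

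**Figure D2:**
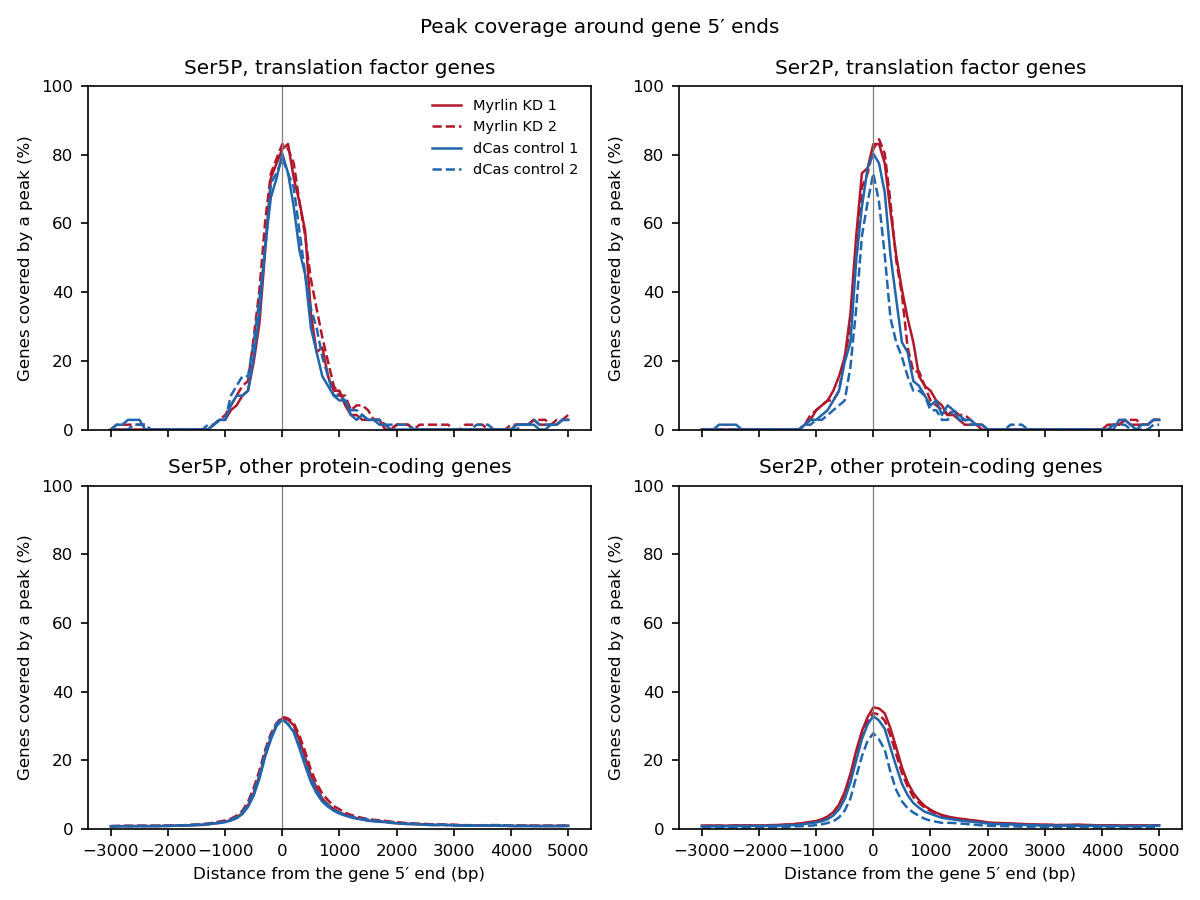
The curves give the percentage of genes covered by a peak at each distance from the 5′ end, in bp, for the translation factor genes (top) and other protein-coding genes (bottom), with KD libraries in red and control libraries in blue. The curves of the members rise about the 5′ end to a higher level than those of other genes.

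The 6 members with no promoter peak in any library were Eef1a2, Eif3j2, Eif4a3l1, Eif4e1b, Eif4e3 and Eif4g3. Each belongs to a family with other members that were marked. Eif3j1, for a loosely bound eIF3 subunit, had Ser5P promoter coverage of 870 and 1091 bp in KD libraries and 740 and 912 bp in control libraries, whereas Eif3j2 had none in either window. Eif5a, for the factor that carries hypusine, was covered over 916 and 976 bp in KD libraries and 870 and 889 bp in control libraries, and its paralogue Eif5a2 over 510 and 0 bp in KD libraries and 0 and 0 bp in control libraries. Eif2s3x, for the X-linked gamma subunit of eIF2, had 1342 and 1021 bp in KD libraries and 1326 and 1397 bp in control libraries, and its Y-linked copy Eif2s3y had 597 and 551 bp in KD libraries and 446 and 628 bp in control libraries. Near-identical copies can share reads, and how such reads were placed is not given in the sources used here, so the values of these pairs are uncertain. Eif4g3, for another eIF4G scaffold, has an annotated start 1676 bp inside its outer 5′ end. At that start Ser5P peaks covered 508 and 962 bp in KD libraries and 541 and 631 bp in control libraries, and Ser2P peaks covered 613 and 655 bp in KD libraries and 648 and 820 bp in control libraries. The lack of a promoter peak at Eif4g3 therefore holds for the outer 5′ end alone. Eif4e1b, an oocyte-type cap-binding protein gene, had interval coverage in every library, and the 5′ end of its neighbour Tspan17 lies within that interval.

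In each library the peak summit nearest the 5′ end was taken for each member, a choice that favours short distances. These summits mostly lay near the annotated 5′ end, and in some members they recurred within a few bases across libraries. For Ser5P, the median summit was within 200 bp of the 5′ end in 46 of the 61 members marked in all 4 libraries, and for Ser2P in 45 of 59. In 11 members for Ser5P and 7 for Ser2P the nearest summits of the 4 libraries fell within 10 bp of each other, and within 100 bp in 26 for Ser5P and 27 for Ser2P. Eif2s2, for the beta subunit of eIF2, had its Ser5P summits between 100 and 101 bp inside the gene and its Ser2P summits between 99 and 101 bp inside it. Eif4g2, for a scaffold used in cap-independent initiation, had its Ser5P summits between -29 and -28 bp. Eif4e was different, with its Ser5P summits between 972 and 1074 bp inside the outer 5′ end, near a second annotated start 1077 bp inside.

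The height of the promoter peaks varied among the members. The summit pileup, recovered from the fold and p-value the authors gave each peak and divided by the library's usual background, had a median over the 8 libraries of 296 at Eif5a, 214.5 at Eif4a1 (the eIF4A helicase) and 204 at Eef1g (a subunit of the eEF1 exchange complex), the 3 highest of the 59 members. The lowest were 27.8 at Eef1akmt3, a methyltransferase of eEF1A, and 27.45 at Eif3i, an eIF3 subunit. In Ser5P libraries the median over members was 77 and 70.5 in KD libraries and 77.7 and 73.2 in control libraries, against 63.2 and 58.5 in KD libraries and 70.7 and 67 in control libraries for other genes marked in the same way. In Ser2P libraries members and other genes were close, with 49.1 and 46.6 in KD libraries and 49.9 and 56.9 in control libraries for members, against 47.3 and 45.6 in KD libraries and 52.5 and 56.9 in control libraries for other genes.

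The authors' fold enrichment orders the genes in another way, since it is divided by the local background. Eef2 had folds of 3.59 and 3.55 in Ser5P KD libraries and 4.4 and 3.92 in Ser5P control libraries, and Eef1a1 had 4 and 4.7 in KD libraries and 5.87 and 5.79 in control libraries. Eef2 had the lowest fold of the 59 members in each of the 8 libraries, yet by pileup Eef1a1 ranked 6 and Eef2 ranked 19 of 59. The local background at their peaks was high, with a median of 23.35 times the library's usual value at Eef1a1 and 24.85 times at Eef2.

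**Figure D3:**
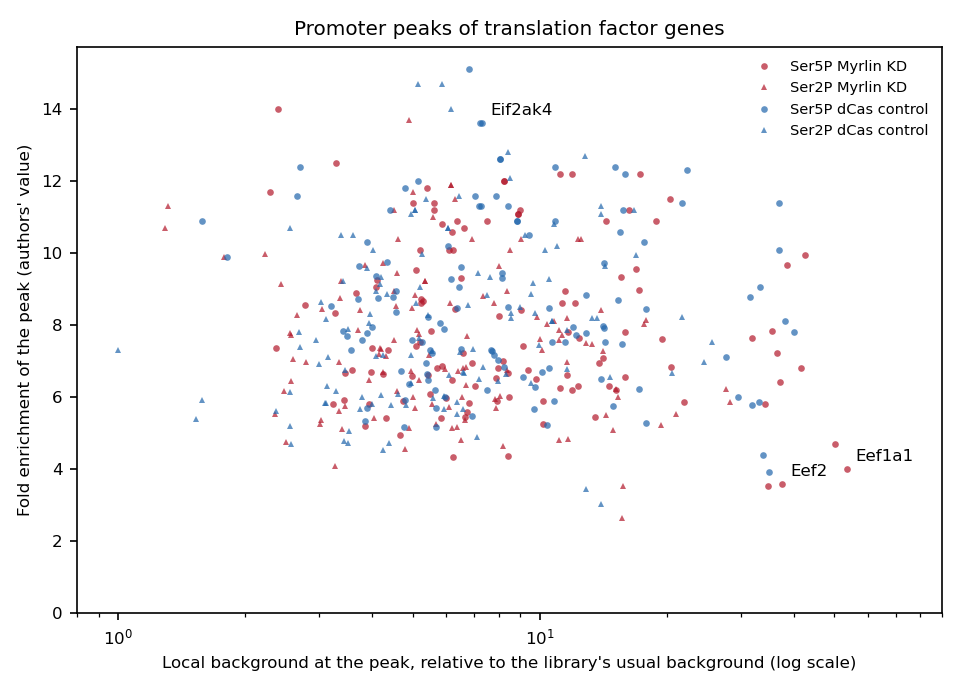
Each point is the strongest promoter peak of 1 gene in 1 library, with the local background relative to the library's usual background on a log scale (x axis) and the authors' fold enrichment (y axis). Eef2 and Eef1a1 lie at high background and low fold.

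The comparison of Myrlin KD with dCas control asks whether loss of the enhancer transcript goes with a change in polymerase phosphorylation at these genes. By presence of peaks, few members differed. A gene was called KD-only where both KD libraries and neither control library had a peak, and control-only in the reverse case. For Ser5P at promoters 1 member was KD-only, Eif3g, with 264 and 303 bp covered in KD libraries and 0 and 0 bp in control libraries, where 0.409% of all genes and 0.898% of genes with a peak in at least 1 library were called. None was control-only, where 0.446% and 0.98% were called on the same 2 bases. The Eif3g peaks had folds of 1.99 and 1.84 and were absent at a −log10 q of at least 5, and the Ser2P promoter peaks of the same gene covered 576 and 322 bp in KD libraries and 650 and 0 bp in control libraries. For Ser2P at promoters no member was KD-only or control-only, where 1.1% of all genes and 2.35% of genes with a peak were called KD-only, and 0.2% and 0.428% control-only. Counts of 0 and 1 among 71 genes are too small to be set apart from these shares.

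In the intervals, 3 of 71 members, of which 51 had a peak, were KD-only for Ser5P, where 1.08% of all genes and 2.35% of genes with a peak were called. None was control-only, where 1.44% and 3.14% were called. Counts of 0 and 3 are too small to be set apart from these shares. Leaving out 1 library changed the KD-only count to 9 (without KD replicate 1), 4 (without KD replicate 2), 5 (without control replicate 1) or 8 (without control replicate 2). These counts are 12.7%, 5.63%, 7.04% and 11.3% of members, against 3.67%, 2.47%, 2% and 2.58% of all genes. Both sets of shares count genes with no peak. A Ser5P interval peak in at least 1 library was present in 51 of 71 members and in 9883 of 21532 genes. A call from 3 libraries is looser for every gene. Eif2ak2, for the double-stranded RNA-activated eIF2alpha kinase, had 723 and 343 bp covered in KD libraries and 0 and 0 bp in control libraries. Eif2b3, for a subunit of the eIF2 exchange factor, had 998 and 356 bp in KD libraries and 0 and 0 bp in control libraries. Eif3m, for an eIF3 subunit, had 435 and 280 bp in KD libraries and 0 and 0 bp in control libraries, and its summits lay 2696 and 2994 bp past the 3′ end, at the edge of the window. The KD peaks of Eif2ak2 did not share a position, with summits 20264 and 29065 bp inside the gene in the first KD library and 22923 bp inside it in the other. For Ser2P, 1 member was KD-only in the interval, Eif3j1, with 352 and 871 bp in KD libraries and 0 and 0 bp in control libraries, where 2.25% of all genes and 4.55% of genes with a peak were called. None was control-only, where 0.548% and 1.11% were called. With a −log10 q of at least 5 the calls of Eif2ak2, Eif2b3, Eif3m and Eif3j1 were all lost. Both Ser2P KD summits of Eif3j1 lay 20055 bp inside the gene, and Ser5P peaks near that point were present in the second KD library and in the second control library. The Ser2P interval had peaks in both KD libraries and none in control 2, the library with the lowest relative depth, in 10 members (14.1%) and in 1760 of all genes (8.17%). These shares count genes with no peak as well. A Ser2P interval peak in at least 1 library was present in 54 of 71 members and in 10648 of 21532 genes.

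By covered length, more members had higher than lower KD values in each mark and window. Over all genes the same held except in Ser5P intervals. At promoters with a Ser5P peak in at least 1 library, both KD values exceeded both control values in 22 of 65 members (33.8%), against 25.6% of all such genes, and were below both in 0 members, against 10.9% of all such genes. At promoters with a Ser2P peak they exceeded both control values in 34 of 65 members (52.3%), against 46.1%, and were below both in 0, against 2.2%. In Ser2P intervals 17 of 54 members (31.5%) were higher and 1 was lower, against 33.8% and 3.48% of genes, and in Ser5P intervals 17 of 51 (33.3%) were higher and 3 were lower, against 15.2% and 15.6%. KD libraries also had wider peaks, as given above. By role, Ser5P promoter coverage was higher in both KD libraries at 4 of 7 genes of the eIF1, eIF5 and eIF5B group, 5 of 13 marked eIF3 subunit genes and 3 of 11 genes of eIF2 and eIF2B. It was higher at 2 of 8 marked eIF4F genes, 2 of 4 eIF2alpha kinase genes, 1 of 6 marked elongation factor genes and 1 of 8 genes for modifiers of elongation factors. The count was 2 of 4 genes for eIF4E-binding proteins, 1 of 3 genes of the eIF5A and eIF6 group and 1 of 1 marked gene of the eIF4A3 family.

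The share of the window covered was tested with limma across all genes with a peak in at least 1 library, with Benjamini-Hochberg adjustment. For Ser5P at promoters no gene of 9797 passed an adjusted p of 0.05 in either direction (0% called each), and 676 genes were higher and 208 lower in KD at an unadjusted p under 0.05 (6.9% and 2.12%), of which 10 and 0 were members. For Ser2P in intervals no gene of 10648 passed (0% called each), and 845 were higher and 80 lower at an unadjusted p under 0.05 (7.94% and 0.751%), of which 6 and 0 were members. The counts of 0 depend on the genes and, for Ser2P, the libraries kept. Genes that had no peak have no spread between libraries, which enters the spread that limma shares across genes. With them also tested, limma called 287 genes higher and 50 lower for Ser5P, and 302 higher and 35 lower for Ser2P, which is no evidence of a difference. Without Ser2P KD replicate 2 it called 691 genes higher for Ser2P. The KD arm then has 1 library, which is assumed to vary like the controls. The median difference, KD minus control, was 2.15 percentage points over 65 members and 1.77 over all genes for Ser5P, and 0.628 over 54 members and 0.587 over all genes for Ser2P. After each library was scaled to the same mean coverage these medians were -0.398 and -0.674 for Ser5P and -0.0168 and -0.00516 for Ser2P. Such scaling centres the differences by construction, so these medians do not bear on the direction. With 2 libraries against 2, an exact permutation test of a single gene cannot give a two-sided p below 0.333.

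The 5 members with the smallest limma p at Ser5P promoters all had higher coverage in KD libraries, and none passed the adjustment. Eif3b, for a core eIF3 subunit, had 1341 and 1369 bp covered in KD libraries and 870 and 870 bp in control libraries, a difference of 24.24 ± 2.63 percentage points (SE, n = 2 libraries each, limma adjusted p = 0.37). Eif4e had 924 and 912 bp in KD libraries and 226 and 342 bp in control libraries, a difference of 31.68 ± 3.75 percentage points (SE, n = 2 each, limma adjusted p = 0.37). Eif4g2 had 1323 and 1398 bp in KD libraries and 955 and 893 bp in control libraries (limma adjusted p = 0.37). The groups of these genes did not overlap. Eif2b5, for the catalytic subunit of the eIF2 exchange factor, had 865 and 955 bp in KD libraries and 435 and 461 bp in control libraries (limma adjusted p = 0.37). Eif5, for the GTPase-activating protein of eIF2, had 1074 and 1052 bp in KD libraries and 753 and 763 bp in control libraries (limma adjusted p = 0.384). In all 5 genes the gap between the groups exceeded the range within them. Choice by the smallest limma p favours such genes, so this is no added evidence of a difference. When genes with no peak in any library were kept in the limma test, Eif3b, Eif4e, Eif4g2 and Eif2b5 passed as higher in KD and Eif6 as lower, and the cause was not tested. Genes with no peak have no spread between libraries, and limma shares spread across genes, so passing there is no evidence of a difference. At Eif6 the KD and control values overlapped. Its difference in the main test was -22.01 ± 11.8 percentage points (SE, limma adjusted p = 0.725). Measured about the second annotated start of Eif4e, Ser5P coverage was 1060 and 1067 bp in KD libraries and 381 and 490 bp in control libraries, and the Ser2P promoter values of Eif4e overlapped, with 463 and 685 bp in KD libraries and 469 and 226 bp in control libraries. In the Eif4e interval the Ser5P order turned round, with 137 and 418 bp in KD libraries and 427 and 679 bp in control libraries. The promoter and interval windows meet 1000 bp inside the gene, and the Ser5P summits of Eif4e lay at 972 to 1074 bp. A peak there is split between the windows, and its part in the turned order was not tested.

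**Figure D4:**
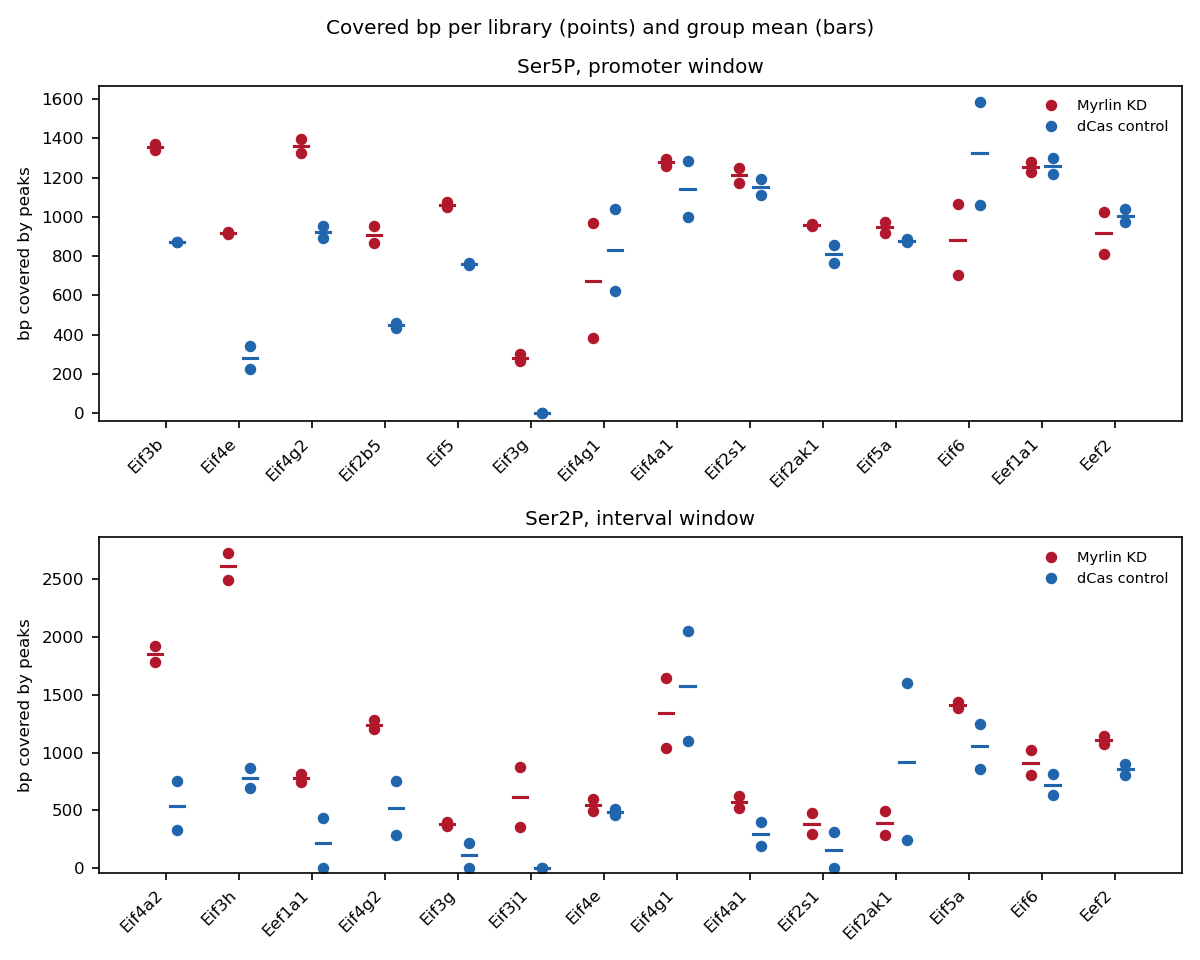
Points give the bp covered by peaks in each library and bars the mean of each group, KD (red) left of control (blue), for Ser5P promoters (top) and Ser2P intervals (bottom). The 5 genes at the left of each panel have the smallest limma p, and most others have groups that overlap or lie close.

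In Ser2P intervals the smallest p belonged to Eif4a2, for an eIF4A helicase, with 1925 and 1782 bp in KD libraries and 757 and 325 bp in control libraries, a difference of 15.15 ± 2.6 percentage points (SE, n = 2 each, limma adjusted p = 0.438). Its peaks in that window overlapped the promoter or lay past the 3′ end. Eif3h, for an eIF3 subunit, had 2725 and 2496 bp in KD libraries and 696 and 869 bp in control libraries, spread over many small peaks along the gene (limma adjusted p = 0.483). Eef1a1 had 748 and 810 bp in KD libraries and 434 and 0 bp in control libraries (limma adjusted p = 0.517). Eif4g2 had 1280 and 1204 bp in KD libraries and 751 and 290 bp in control libraries (limma adjusted p = 0.523). Eif3g had 397 and 361 bp in KD libraries and 220 and 0 bp in control libraries (limma adjusted p = 0.571). In each of these genes the KD values lay above the control values, which choice by the smallest p favours. Control 2 was the lowest library at Eif4a2, Eef1a1, Eif4g2 and Eif3g, but not at Eif3h.

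Among the leading factors of the other roles the Ser5P promoter values of KD and control overlapped at Eif2s1, Eif4a1, Eif4g1, Eif6, Eef1a1 and Eef2, and did not overlap at Eif2ak1 and Eif5a. Eif2ak1, for the haem-regulated kinase, had 952 and 962 bp in KD libraries and 858 and 764 bp in control libraries, and its Ser2P interval had 493 and 285 bp in KD libraries and 1601 and 241 bp in control libraries. Eif2s1 had 1175 and 1248 bp in KD libraries and 1109 and 1195 bp in control libraries. Eif4a1 had 1259 and 1296 bp in KD libraries and 998 and 1285 bp in control libraries, and its paralogue Eif4a2 had 1370 and 1389 bp in KD libraries and 1372 and 1366 bp in control libraries. At both eIF4A helicase genes the Ser5P promoter values thus overlapped between the 2 lines. In Ser2P intervals the KD values lay above the control values at Eif4a2, as given above, and at Eif4a1. Eif4a1 had 626 and 524 bp there in KD libraries and 188 and 398 bp in control libraries. Eif4g1 had 381 and 968 bp in KD libraries and 621 and 1042 bp in control libraries, and the second library of each line was the higher. Eif6, for the anti-association factor of the large subunit, had 704 and 1065 bp in KD libraries and 1063 and 1587 bp in control libraries. The Ser5P promoter values of Eef1a1 and Eef2 overlapped between the lines, with 1230 and 1279 bp in KD libraries and 1219 and 1299 bp in control libraries at Eef1a1, and 810 and 1026 bp in KD libraries and 973 and 1039 bp in control libraries at Eef2. For Ser2P, promoter coverage in both KD libraries was above both controls at 4 of 6 marked elongation factor genes. The share was 52.3% of all 65 marked members and 46.1% of all genes with such a peak. A count of 4 among 6 is too small to be set apart from these shares.

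Beyond the promoter, the members were marked less evenly. Peaks in the interval were present in all 8 libraries for 24 members (33.8%), against 21.8% of other genes, and both windows were marked in all 8 for 21 members (29.6%), against 11.2%. Promoter peaks that reach into the interval count here, and at Eif4ebp1 no library had a summit in the interval. The interval of Eif4g3 holds its marked annotated start. At 8 members the promoter was marked in all 8 libraries and the interval in none: Eef1e1, Eif1, Eif1a, Eif1ad, Eif2b2, Eif2b4, Eif3k and Eif3l. They are 13.6% of the 59 members with such promoters, against 21% of the 7365 other genes. Gene length moves with interval marking. Among genes with both promoter marks in all 8 libraries, Ser2P interval peaks in all 4 libraries were found in 44.4% of 18 members under 10 kb, against 25.8% of such other genes. In genes of 10 to 30 kb the shares were 40.7% of 27 members and 34.8% of others, and in genes of 30 kb or longer 50% of 14 members and 54.8% of others. Of 604 interval peaks of members, 93 (15.4%) had a summit within 1 kb of the 5′ end of another gene. Without those peaks, the members with an interval peak in all 4 libraries went from 28 to 21 for Ser5P and from 30 to 23 for Ser2P. Other genes were not counted in this way. Interval peaks at Eef2 coincide with the 5′ end of Dapk3 and those at Eif6 with that of BC029722, so they cannot be told apart from peaks of those neighbours.

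A peak within 3000 bp past the 3′ end was present at a larger share of members than of other genes with both promoter marks. For Ser5P it was present at 32.2% and 42.4% of 59 members in KD libraries and at 30.5% and 33.9% in control libraries, against 18.4% and 21.1% of 7365 other genes in KD libraries and 18.6% and 20.3% in control libraries. For Ser2P it was present at 40.7% and 37.3% of members in KD libraries and at 45.8% and 30.5% in control libraries, against 28.5% and 26.6% of other genes in KD libraries and 25.3% and 17.8% in control libraries. The shares of members stayed above those of other genes in every library when peaks with a summit within 1000 bp of any 5′ end were left out. For Ser5P they were then 23.7% and 32.2% of members in KD libraries and 20.3% and 25.4% in control libraries, against 10.2% and 12.7% of other genes in KD libraries and 10.3% and 11.9% in control libraries. For Ser2P they were 32.2% and 27.1% of members in KD libraries and 37.3% and 20.3% in control libraries, against 19.6% and 17.9% of other genes in KD libraries and 16.6% and 10% in control libraries. Eef1a1 is an example, with Ser5P summits 1522 bp past its 3′ end in both KD libraries and 1521 bp past it in both control libraries, and coverage of 1566 and 1331 bp in KD libraries and 1002 and 743 bp in control libraries. The difference between members and other genes was not tested.

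**Figure D5:**
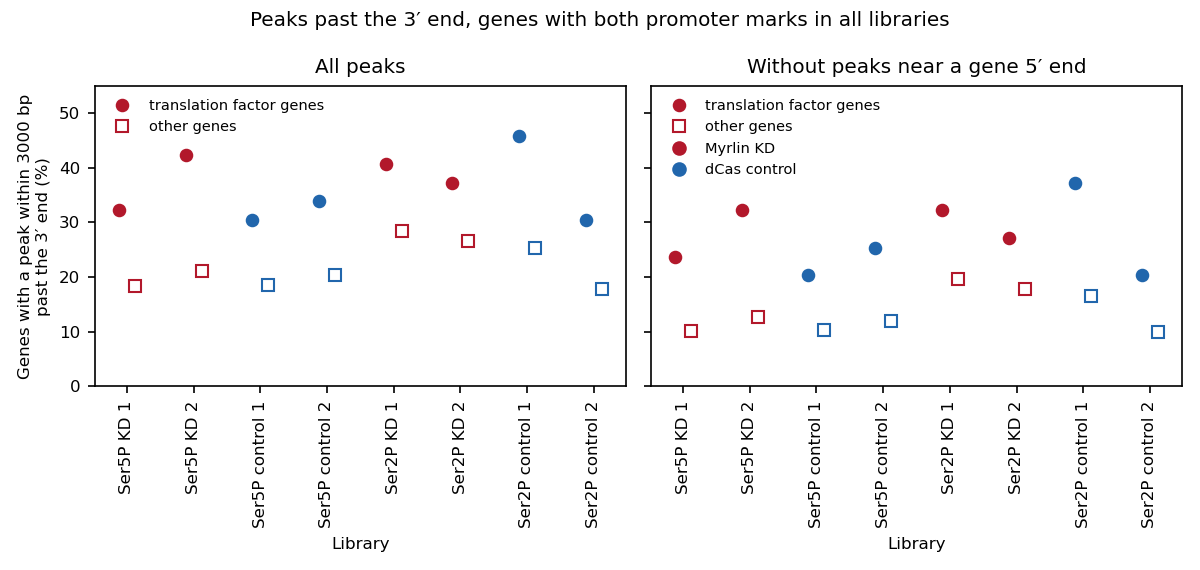
Each point is the percentage of genes with a peak within 3000 bp past the 3′ end in 1 library, for translation factor genes (filled) and other genes (open) with both promoter marks in all libraries, KD in red and control in blue. The filled points lie above the open points in every library, with all peaks (left) and without peaks near a 5′ end (right).

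Among the 39 other pathway genes none was control-only in any of the 4 combinations of mark and window, and 4 calls were KD-only, all for Ser2P, with 1 at promoters and 3 in intervals. Over all genes KD-only calls for Ser2P made up 1.1% at promoters and 2.25% in intervals. Of genes with a peak they made up 2.35% and 4.55%, and 36 and 31 of the 39 genes had such a peak. Counts of 1 and 3 among 39 genes are too small to be set apart from these shares. Paip1, for a partner of the poly(A)-binding protein, had 453 and 345 bp of its promoter covered in KD libraries and 0 and 0 bp in control libraries. In intervals Pabpc4, for a poly(A)-binding protein, had 947 and 361 bp in KD libraries and 0 and 0 bp in control libraries. Dhps, for the enzyme that starts the hypusine modification of eIF5A, had 263 and 247 bp in KD libraries and 0 and 0 bp in control libraries, and Abcf1, for a protein that binds eIF2, had 764 and 383 bp in KD libraries and 0 and 0 bp in control libraries. At a −log10 q of at least 5, and with equal list lengths, the calls of Paip1 and Dhps were made again and those of Pabpc4 and Abcf1 were lost. The calls of Paip1, Dhps and Abcf1 were lost in narrower windows.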

How the data were processed

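The authors deposited 1 MACS2 peak list per library, on GRCm38/mm10 per the submitters' processing notes, which name MACS2 2.2.7.1, Bowtie2 2.3.5, cutadapt 2.7, Picard 2.21.4, SAMtools 1.9 and deepTools 3.3.1. Peak calling parameters and any control library: not given in the sources used here. Each deposited list holds a summit offset, a display score, a fold enrichment (ratio) and −log10 values of p and q for every peak, all used as the authors' values within their list. Read totals were not used here, so depth is relative. Only peaks on assembled chromosomes were kept, without the mitochondrial one.

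Gene positions came from the RefSeq table for GRCm38.p6. Strand came from its promoter table (55 members) or by name from GENCODE vM1 (16 members), whose coordinates were not used because its build differs. Windows were scored as present from 1 bp of overlap. Pileups were solved from fold and p with a tolerance of 0.001 on −log10 p. Covered shares were tested with limma 3.58.1 in R 4.3.3, in a fit across all genes of a mark, and the scripts were tested on simulated data. The members and lists were chosen with earlier results of these data known. Genes named with values are the leading factor of each role, paralogue pairs, called genes, genes without a promoter peak and the 5 smallest limma p per test. Alternatives were equal list lengths, a −log10 q of at least 5, at least 200 bp covered, summits only, narrower windows (500 bp at promoters, ending at the 3′ end), no filter, scaling, the replicate block and leaving out each library. Using any annotated start was added after seeing the data.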

Additional observations from a re-analysis of the deposited data

How the results depend on the processing

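Call counts among members are small: under alternatives 27 moved by over 1.5 times and 49 did not. The Ser5P promoter KD-only count of 1 became 0 at a −log10 q of at least 5 and 2 with narrower windows (Eif3g and Eif4e), and was 1 to 2 when each library was left out, with 2 without KD replicate 2. The Ser5P interval KD-only count of 3 was 2 at a −log10 q of at least 5, where it held Eef1g and Eif3g, and ranged from 4 to 9 when each library was left out, and the control-only count from 0 to 1, with 1 (Eif4b) in narrower windows. The Ser2P promoter KD-only count of 0 became 1 (Eif5a2) at a −log10 q of at least 5 and 1 with equal list lengths, and was 0 to 4 when each library was left out, with 0 to 1 control-only; the 4 arose without control replicate 1. The Ser2P interval KD-only count of 1 became 0 at a −log10 q of at least 5, 0 with equal list lengths, 2 with at least 200 bp covered and 3 with narrower windows, and was 1 to 10 when each library was left out, with 10 without control replicate 1. Its control-only count of 0 became 1 at that q, 2 with equal list lengths and 2 with narrower windows, and was 0 to 2 when each library was left out. The highest KD-only counts with a library left out were 2.82%, 12.7%, 5.63% and 14.1% of members, in the order given. The shares of all genes were then 0.836%, 3.67%, 4.63% and 8.17%. Both sets of shares count genes with no peak, and members had peaks more often than all genes in each mark and window. The limma counts of 0 held under scaling, the stricter q and equal list lengths. Keeping genes with no peak in the limma test gave 287 genes higher and 50 lower in KD for Ser5P, and 302 higher and 35 lower for Ser2P, and the cause was not tested. Since those genes bring no spread into the estimate that limma shares, these counts are no evidence of a difference. Without Ser2P KD replicate 2 the Ser2P test called 691 genes higher in KD, with a spread that comes from the 2 controls alone, and the left-out libraries gave 0 to 691. With a replicate block both tests called 0 genes. Covered shares of same-numbered libraries deviated together little (correlations of 0.0379 for Ser5P and 0.0906 for Ser2P). The labels do not say whether such libraries were processed as pairs, and these correlations cannot decide it. Of 171 single-gene differences under alternatives, 26 had another sign or became 0, in 16 of 23 genes and windows. The unknown read depth limits what an absent peak means.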
